A study of Mus musculus with 6 samples.

Results

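Growth factors that act on hepatic stellate cells were examined in liver NK cells separated by the fatty acid receptor CD36. The 9 genes Pdgfa, Pdgfb, Osm, Igf1, Areg, Hbegf, Vegfa, Vegfb and Spp1 were taken by gene symbol from a table of 57180 mouse genes. RNA was sequenced from CD36+ NK and CD36- NK cells, with 3 libraries in each group. Both groups came from CCl4-treated male C57BL/6J mice that were 6 to 8 weeks old and carried no named transgene or deletion. CCl4 was given at 2.5 ml/kg as a 20% solution in olive oil, 2 injections a week were given for 4 weeks, and livers were collected 48 h after dosing ended. NK cells were gated as CD3- NK1.1+ and then sorted by CD36, so the groups differ in the marker of the sort, and mice without CCl4 were not analysed here. The libraries of a group are described as biological triplicates, but the animals behind each library are not given, so the p-values measure only the spread between these libraries.

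Hepatic stellate cells are the main source of scar matrix in the injured liver, and growth factors from neighbouring cells are known to act on them. PDGF is the classical mitogen of stellate cells, VEGF acts on stellate and sinusoidal endothelial cells, and oncostatin M signals through gp130 receptors. IGF-1 and the EGF receptor ligands amphiregulin and HB-EGF signal through receptor tyrosine kinases, while osteopontin, the product of Spp1, binds integrins and CD44.

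Total counts ran from 10292480 to 13787189 per library, and 14761 genes had enough counts to be tested. Cd36 itself had 1232, 3569 and 2859 counts in CD36+ NK replicates 1 to 3 and 186, 359 and 175 counts in CD36- NK replicates 1 to 3, with a log2 fold change of 3.27 ± 0.43 (SE, n = 3 in each group, edgeR quasi-likelihood test, Benjamini-Hochberg adjusted p = 0.00615). All 12 NK lineage genes, of which Gzma had the most counts, were detected in every library, but all 12 fell in CD36+ NK, where their summed level was 1006 to 1200 CPM (a count scaled to a fixed library total) against 5395 to 6910 CPM in CD36- NK. Of 12 macrophage and Kupffer cell genes, 10 were tested. Of these, edgeR called 4, all higher in CD36+ NK, and DESeq2 called 8, against 5.96% and 7.74% of all tested genes. The summed level of the list was 6736 to 9368 CPM in CD36+ NK against 2472 to 5812 CPM in CD36- NK. Without Lyz2 it was 2431 to 5882 CPM against 420 to 1482 CPM. B cell genes summed to 4615 to 5142 CPM in CD36+ NK and 3035 to 3479 CPM in CD36- NK. Erythroid genes summed to 345 to 779 CPM in CD36+ NK and 74.7 to 163 CPM in CD36- NK. Conventional dendritic cell genes were lower in CD36+ NK, at 301 to 365 CPM against 481 to 661 CPM in CD36- NK. T cell genes summed to 338 CPM in CD36+ NK replicate 1 and to 27.4 to 47.7 CPM in the other libraries. Stellate cell genes summed to 8.59 to 27.8 CPM, with Lrat and Rgs5 at 0 in every library and most of the sum in Hgf. In these bulk samples, fewer cells of a type and less RNA per cell cannot be told apart.

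None of the 9 growth factor genes was called between the groups, where a call needed both an adjusted p under 0.05 and a more than 2-fold difference in edgeR's quasi-likelihood test. In the whole table, 5.96% of tested genes were called, 2.98% as higher and 2.98% as lower in CD36+ NK. The lowest p-values were those of Pdgfb, which was 1.81-fold lower in CD36+ NK, and of Igf1 and Spp1, which were 6.46-fold and 2.25-fold higher. Only Pdgfb had an adjusted p below 0.05, as had 10.5% of all tested genes at any fold. At an unadjusted p below 0.05, 5 of the 8 tested genes passed (Pdgfb, Igf1, Spp1, Vegfb and Hbegf), as did 26.3% of all tested genes. DESeq2 called 2, Igf1 and Spp1, and 7.74% of all tested genes. The log2 fold change was above 0 for 5 genes and below 0 for 3, with a median of 0.70 against 0.01 over all tested genes. The CPM of the groups did not overlap for 5 of the 8 genes, as for 32.8% of all tested genes. Areg was too low to be tested.

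**Figure D1:**
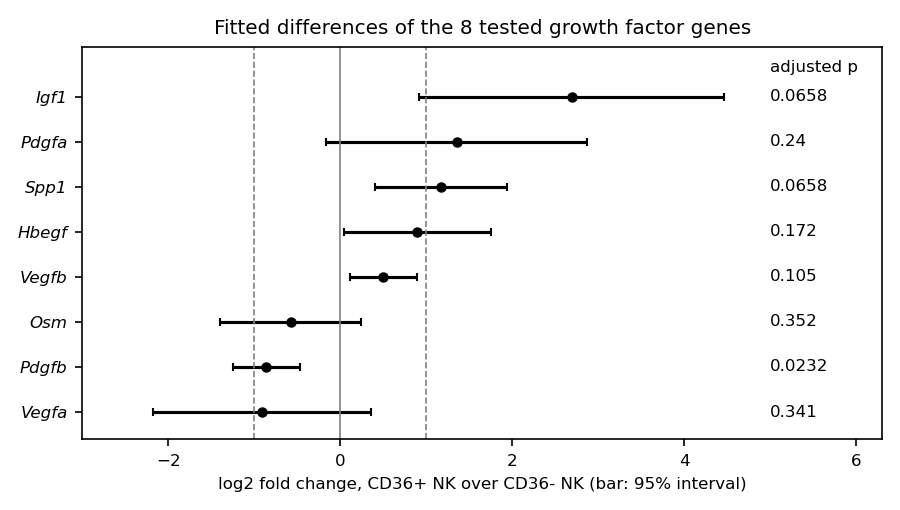
Fitted log2 fold changes of the 8 tested genes, CD36+ NK over CD36- NK (horizontal axis), with 95% intervals as bars, adjusted p at the right and dashed lines at a fold change of 2. The values run from -0.91 for Vegfa to 2.69 for Igf1, and the intervals of Pdgfb, Vegfb, Hbegf, Spp1 and Igf1 do not include 0.

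The levels of the 9 genes were compared per length with the FPKM values of the table, in which a count is divided by gene length and library size. Osm and Pdgfb had the highest levels in both groups. Osm was at 15.4 ± 7.43 FPKM (SD, n = 3) in CD36+ NK and 23.4 ± 7.03 FPKM in CD36- NK, and Pdgfb was at 9.41 ± 1.82 FPKM and 17.6 ± 1.59 FPKM. Vegfb came next in both groups, at 5.36 ± 0.783 FPKM in CD36+ NK and 3.89 ± 0.0325 FPKM in CD36- NK. Then the order differed. In CD36+ NK, Spp1 (4.64 ± 1.21 FPKM) and Igf1 (4.63 ± 2.66 FPKM) stood above Vegfa (1.53 ± 0.798 FPKM), whereas in CD36- NK Vegfa (2.92 ± 1.63 FPKM) stood above Spp1 (2.11 ± 0.844 FPKM) and Igf1 (0.753 ± 0.788 FPKM). Hbegf, Areg and Pdgfa were the lowest in both groups, with means of 0.325 to 0.723 FPKM in CD36+ NK and 0.126 to 0.403 FPKM in CD36- NK. Among neighbours in this order, only the ranges of Pdgfb and Vegfb over the libraries of a group did not overlap, in both groups, and the ranges of the other neighbours overlapped.

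**Figure D2:**
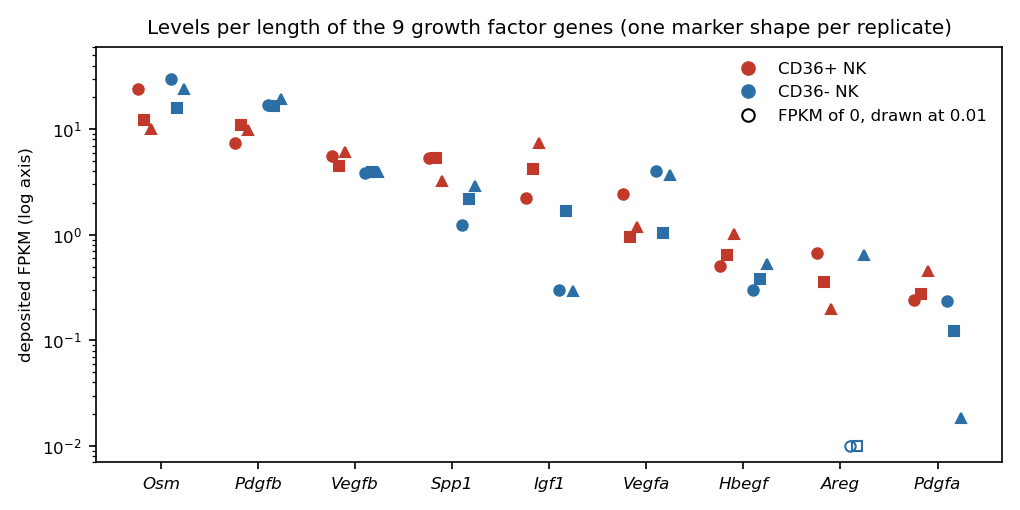
Deposited FPKM of the 9 genes in each library on a log axis, ordered by their mean over all 6 libraries, with CD36+ NK in red, CD36- NK in blue and 1 marker shape per replicate. Osm and Pdgfb lie highest in both groups, and Areg at an FPKM of 0 in 2 CD36- NK libraries is drawn as an open marker at 0.01.

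Pdgfb encodes the B chain of PDGF, which binds both PDGF receptors (ENSMUSG00000000489, chromosome 15, 79880075 to 79899178, minus strand, coordinates as in the table). It had 437, 803 and 655 counts in CD36+ NK replicates 1 to 3, or 38.9, 59.1 and 54.5 CPM, and 1151, 958 and 1058 counts in CD36- NK replicates 1 to 3, or 88.5, 84.7 and 103.3 CPM. Every CD36- NK library was higher than every CD36+ NK library. The group means were 50.8 ± 10.6 CPM in CD36+ NK and 92.2 ± 9.85 CPM in CD36- NK (SD, n = 3), and the log2 fold change was -0.86 ± 0.17 (SE, 95% interval -1.25 to -0.46, edgeR adjusted p = 0.0232). As a fold, Pdgfb was 1.81-fold lower in CD36+ NK, with an interval of 1.38 to 2.38. The adjusted p was 0.0710 when CD36+ NK replicate 3 was left out, 0.0622 when CD36- NK replicate 1 was, and 0.0682 when CD36- NK replicate 3 was, with the same direction in each.

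The NK lineage genes were also lower in CD36+ NK, and the median of their log2 fold changes was -2.49. Set against the summed CPM of these 12 genes, Pdgfb had 34.5, 49.3 and 54.1 CPM per 1000 CPM in CD36+ NK replicates 1 to 3 and 14.1, 15.7 and 15.0 in CD36- NK replicates 1 to 3. This ratio was higher in every CD36+ NK library, the opposite of the order of Pdgfb itself, with means of 46.0 ± 10.2 and 14.9 ± 0.809 (SD, n = 3). For Osm the same ratio was 53.5, 26.6 and 26.6 in CD36+ NK replicates 1 to 3 and 12.1, 7.34 and 8.95 in CD36- NK replicates 1 to 3. A gene that falls less than the summed NK lineage genes has a higher ratio in CD36+ NK. This order is therefore not particular to Pdgfb. Both ratios were chosen after the values were seen and are given without a test. The part of NK cell content in the Pdgfb difference was not tested. The 3 tested genes with the pattern across the 6 libraries most like that of Pdgfb were Cacng8, Cd244a and Foxd2, with root mean square differences of 0.0918, 0.0928 and 0.0949 between centred log2 CPM values. Cd244a, which encodes the NK cell receptor 2B4, was the most abundant of them, at 113 CPM in CD36+ NK and 197 CPM in CD36- NK.

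Pdgfa encodes the A chain of PDGF, which binds PDGF receptor alpha (ENSMUSG00000025856, chromosome 5, 138961769 to 138983125, minus strand). Its counts were low, with 14, 20 and 30 in CD36+ NK replicates 1 to 3 and 16, 7 and 1 in CD36- NK replicates 1 to 3. In CPM these were 1.25, 1.47 and 2.49 against 1.23, 0.619 and 0.0977, so the groups were separated only by the small gap between the replicate 1 libraries. The means were 1.74 ± 0.665 CPM and 0.649 ± 0.567 CPM (SD, n = 3), the log2 fold change was 1.35 with a 95% interval from -0.17 to 2.87, and the adjusted p was 0.240 in edgeR's quasi-likelihood test. The log2 fold change was 2.19 when CD36- NK replicate 1 was left out and 0.88 when CD36- NK replicate 3 was. Nearly all PDGF transcript of these genes was Pdgfb, which made up 96.8%, 97.5% and 95.6% of the summed FPKM of Pdgfa and Pdgfb in CD36+ NK replicates 1 to 3 and 98.6%, 99.3% and 99.9% in CD36- NK replicates 1 to 3.

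Vegfa encodes the main endothelial growth factor of the VEGF family (ENSMUSG00000023951, chromosome 17, 46327919 to 46343295, minus strand). It had 201, 98 and 111 counts in CD36+ NK replicates 1 to 3, or 17.9, 7.21 and 9.23 CPM, and 385, 85 and 280 counts in CD36- NK replicates 1 to 3, or 29.6, 7.52 and 27.3 CPM. The groups overlapped, since CD36- NK replicate 2 was as low as the lowest CD36+ NK libraries. The means were 11.4 ± 5.67 CPM and 21.5 ± 12.2 CPM (SD, n = 3), and the log2 fold change of -0.91 had a 95% interval from -2.18 to 0.35 (edgeR adjusted p = 0.341).

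Vegfb, which encodes a ligand of VEGF receptor 1, differed less and was more even (ENSMUSG00000024962, chromosome 19, 6959841 to 6965019, minus strand). Its counts were 132, 134 and 164 in CD36+ NK replicates 1 to 3 and 107, 92 and 87 in CD36- NK replicates 1 to 3, which gave 11.7, 9.86 and 13.6 CPM against 8.23, 8.13 and 8.50 CPM. The groups did not overlap, and the CD36- NK libraries were nearly level. With means of 11.7 ± 1.89 CPM and 8.29 ± 0.188 CPM (SD, n = 3), the log2 fold change was 0.50 with a 95% interval from 0.11 to 0.90, and it did not pass after adjustment (edgeR adjusted p = 0.105). Vegfb made up 69.3%, 82.5% and 83.6% of the summed FPKM of Vegfa and Vegfb in CD36+ NK replicates 1 to 3 and 48.9%, 78.8% and 51.7% in CD36- NK replicates 1 to 3. These shares overlapped through CD36- NK replicate 2, the library with low Vegfa.

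Osm encodes oncostatin M, a cytokine of the IL-6 family made by leukocytes (ENSMUSG00000058755, chromosome 11, 4186420 to 4191026, plus strand). It had 677, 434 and 322 counts in CD36+ NK replicates 1 to 3, or 60.3, 31.9 and 26.8 CPM, and 985, 448 and 633 counts in CD36- NK replicates 1 to 3, or 75.7, 39.6 and 61.8 CPM. Replicate 1 was the highest library in each group, and the groups overlapped. The means were 39.7 ± 18.0 CPM and 59.1 ± 18.2 CPM (SD, n = 3), and the log2 fold change of -0.58 had a 95% interval from -1.40 to 0.24 (edgeR adjusted p = 0.352). Neutrophils, which are known to make oncostatin M, were followed with 8 marker genes, all of them tested. None was called by edgeR or DESeq2, against 5.96% and 7.74% of all tested genes. At an unadjusted p below 0.05 there were 0, against 26.3% of all tested genes. The summed level of the 8 marker genes was 2725, 385 and 471 CPM in CD36+ NK replicates 1 to 3 and 2171, 1180 and 856 CPM in CD36- NK replicates 1 to 3. It was thus also highest in replicate 1 of each group, and its part in the spread of Osm was not tested.

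Igf1 encodes insulin-like growth factor 1, a hormone secreted by hepatocytes and also made by macrophages (ENSMUSG00000020053, chromosome 10, 87694127 to 87772904, plus strand). It had 324, 759 and 1236 counts in CD36+ NK replicates 1 to 3, or 28.8, 55.8 and 102.8 CPM, and 51, 240 and 40 counts in CD36- NK replicates 1 to 3, or 3.92, 21.2 and 3.91 CPM. All CD36+ NK libraries were higher than all CD36- NK libraries, but CD36- NK replicate 2 stood close to CD36+ NK replicate 1. The means were 62.5 ± 37.4 CPM and 9.68 ± 9.99 CPM (SD, n = 3). The log2 fold change was 2.69 ± 0.75 (SE), a 6.46-fold difference with a 95% interval from 1.89 to 22.1, and its adjusted p of 0.0658 in edgeR missed the threshold. DESeq2 gave an adjusted p of 0.0275, and a block for the form of the library name, which the replicate 1 libraries share, gave 0.0395. Without CD36- NK replicate 2 it passed, with a log2 fold change of 3.99 (adjusted p = 0.0119), and without CD36+ NK replicate 1, the library where the T cell genes summed highest, it passed with 3.02 (adjusted p = 0.0475). It did not pass when any of the other 4 libraries was left out, with log2 fold changes of 2.13 to 2.77 and adjusted p from 0.140 to 0.192. With a block for the replicate number, the adjusted p of Igf1 in edgeR was 0.0732.

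The spread of Igf1 between libraries went with the complement genes C1qa, C1qb and C1qc, which macrophages and Kupffer cells make. The summed C1q level was 734, 1084 and 2136 CPM in CD36+ NK replicates 1 to 3 and 69.0, 387 and 74.3 CPM in CD36- NK replicates 1 to 3. Per 1000 CPM of C1q, Igf1 was at 39.3, 51.5 and 48.1 CPM in CD36+ NK and at 56.9, 54.9 and 52.6 CPM in CD36- NK. The highest of these ratios was 1.45 times the lowest, whereas Igf1 itself differed 26.3-fold between its highest and lowest library, and every ratio in CD36- NK was above every ratio in CD36+ NK. Against the whole macrophage and Kupffer cell list, the order was the opposite, with ratios that ran from 4.28 to 11.0 in CD36+ NK but from 0.729 to 3.65 in CD36- NK, no overlap and a 15.0-fold spread. Lyz2, a gene of monocytes and neutrophils as well, makes up much of that list's sum. Without Lyz2 the ratio was 11.9, 14.9 and 17.5 in CD36+ NK replicates 1 to 3 and 6.23, 14.3 and 9.30 in CD36- NK replicates 1 to 3, with overlap between the groups. With Lyz2 included, all 10 tested genes of the list had a log2 fold change above 0, with a median of 2.89, and the Kupffer cell gene Clec4f was at 0 in CD36+ NK replicate 3 and in all CD36- NK libraries. The hepatocyte gene Hnf4a was at 0 in every library, and the hepatocyte genes summed to 1.83 to 10.4 CPM in CD36+ NK and 0.0884 to 1.08 CPM in CD36- NK. These ratios were chosen after the values were seen, and the part of macrophage RNA in the Igf1 difference was not tested.

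**Figure D3:**
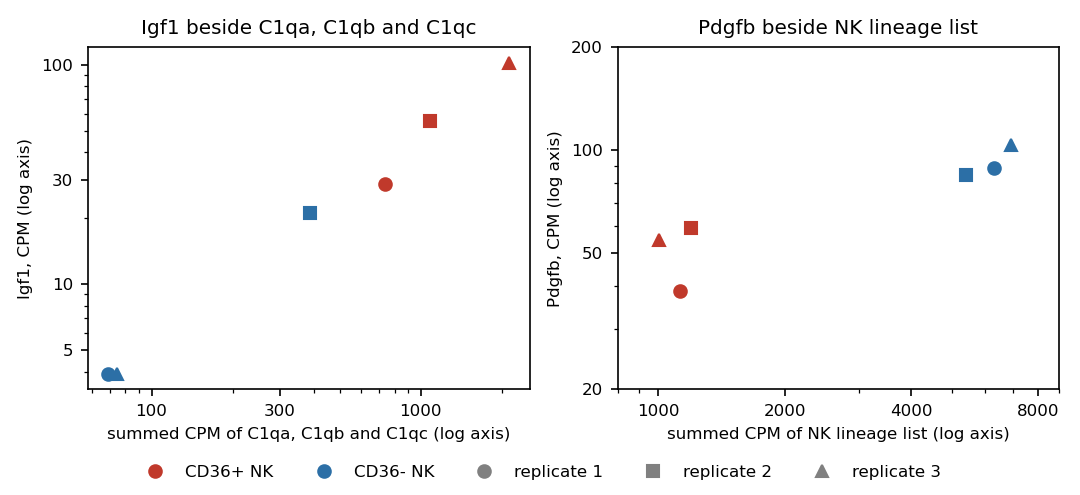
Igf1 against the summed CPM of C1qa, C1qb and C1qc (left) and Pdgfb against the summed CPM of the 12 NK lineage genes (right), all on log axes, with 1 point per library, CD36+ NK in red and CD36- NK in blue. Igf1 and C1q were low together in CD36- NK replicates 1 and 3 and high together in CD36+ NK replicate 3, while Pdgfb reached 59.1 CPM in CD36+ NK and was at 84.7 CPM or more in CD36- NK.

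By the same measure of likeness, Slc16a9 (0.122), Vstm4 (0.130) and Axl (0.159) had the patterns nearest to that of Igf1 among the tested genes. Axl, a receptor that binds Gas6 and is found on macrophages, was at 690 ± 404 CPM in CD36+ NK and 107 ± 107 CPM in CD36- NK (SD, n = 3).

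Hbegf encodes the membrane-anchored precursor of HB-EGF (ENSMUSG00000024486, chromosome 18, 36637980 to 36648858, minus strand). It had 32, 51 and 73 counts in CD36+ NK replicates 1 to 3, or 2.85, 3.75 and 6.07 CPM, and 22, 24 and 31 counts in CD36- NK replicates 1 to 3, or 1.69, 2.12 and 3.03 CPM. The groups overlapped only through CD36- NK replicate 3 and CD36+ NK replicate 1. With means of 4.22 ± 1.66 CPM and 2.28 ± 0.682 CPM (SD, n = 3), the log2 fold change was 0.90 with a 95% interval from 0.04 to 1.75 (edgeR adjusted p = 0.172).

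Areg encodes amphiregulin (ENSMUSG00000029378, chromosome 5, 91287458 to 91296291, plus strand) and was at the edge of detection. It had 9, 6 and 3 counts in CD36+ NK replicates 1 to 3 and 0, 0 and 8 counts in CD36- NK replicates 1 to 3, so 1 CD36- NK library was above 2 of the CD36+ NK libraries. Counts of 0 in CD36- NK replicates 1 and 2 allow levels of up to 0.231 and 0.265 CPM, taking 3 counts as the floor, which covers counting error only. No difference was detectable at this depth.

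Spp1 encodes osteopontin, a secreted ligand of integrins and CD44 (ENSMUSG00000029304, chromosome 5, 104582984 to 104588916, plus strand). It had 320, 393 and 219 counts in CD36+ NK replicates 1 to 3, or 28.5, 28.9 and 18.2 CPM, and 86, 128 and 162 counts in CD36- NK replicates 1 to 3, or 6.61, 11.3 and 15.8 CPM. The groups did not overlap, but the gap between CD36+ NK replicate 3 and CD36- NK replicate 3 was small. The means were 25.2 ± 6.06 CPM and 11.3 ± 4.61 CPM (SD, n = 3). The log2 fold change was 1.17 ± 0.33 (SE), a 2.25-fold difference with a 95% interval from 1.32 to 3.84, and the adjusted p was 0.0658 in edgeR and 0.00719 in DESeq2. Unlike Igf1, Spp1 was lowest among the CD36+ NK libraries in replicate 3, where the C1q genes were highest. The 3 genes with the nearest pattern were Acod1 (0.279), Mmp12 (0.292) and Gm4610 (0.296), looser matches than the nearest genes of Pdgfb (0.0918) and Igf1 (0.122). Acod1 and Mmp12 are genes of activated macrophages, and Acod1 overlapped between the groups. Mmp12 was at 4.46 ± 1.13 CPM in CD36+ NK and 1.57 ± 0.776 CPM in CD36- NK (SD, n = 3). Per 1000 CPM of the macrophage and Kupffer cell list without Lyz2, Spp1 was at 11.7, 7.73 and 3.10 CPM in CD36+ NK replicates 1 to 3. In CD36- NK replicates 1 to 3 this ratio was 10.5, 7.64 and 37.7, with overlap and a 12.2-fold spread. It was chosen after the values were seen, and the part of macrophage RNA in the Spp1 difference was not tested.

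**Figure D4:**
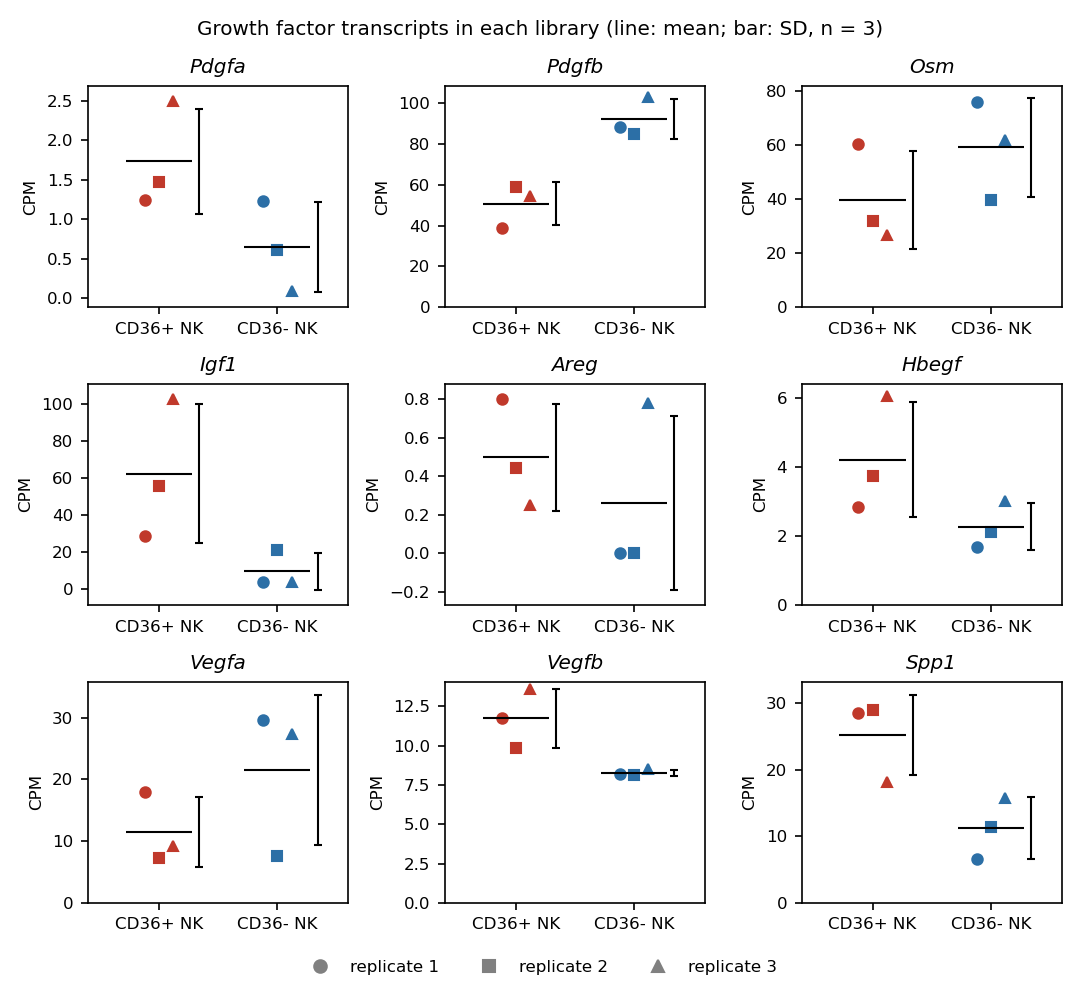
CPM of the 9 genes in each library, with replicates as marker shapes, the mean as a line and the SD as a bar (n = 3 in each group). Pdgfb, Igf1, Vegfb and Spp1 separate the groups, Pdgfa does so by a small margin between 1.23 and 1.25 CPM, and Osm, Areg, Hbegf and Vegfa overlap.

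The wider signalling system was described with 81 other ligands, receptors, and processing proteases. Of 80 found in the table, 47 were tested and 9 were called, or 19.1% against 5.96% of all tested genes, with 8 higher and 1 lower in CD36+ NK against 2.98% of all tested genes in each direction. The count was 14 with DESeq2, 5 when replicate 2 or 3 of CD36+ NK or replicate 3 of CD36- NK was left out, and 15 when replicate 2 of CD36- NK was. With 10 counts needed in every library, 6 of 40 tested were called, 5 of them higher, against 716 of 13244 genes. Pdgfc, Il10 and Pdgfrb were not tested there. The lists were chosen with earlier results of these data known, so these shares cannot show an excess of calls. In the main fit, another 6 genes had an adjusted p below 0.05 with a fold change under 2. Of the ligands, Pdgfc, which encodes a PDGF that is activated by proteolysis, rose from 1, 18 and 9 counts in CD36- NK replicates 1 to 3 to 46, 89 and 178 counts in CD36+ NK replicates 1 to 3. Its log2 fold change was 3.34 (adjusted p = 0.0418), and it lost the call without CD36+ NK replicate 2 (3.50, adjusted p = 0.0938) or 3 (2.67, adjusted p = 0.125), without CD36- NK replicate 1 (2.74, adjusted p = 0.0850) or 3 (3.36, adjusted p = 0.135), and with no filter on low counts (adjusted p = 0.0536). Without CD36- NK replicate 2 it was 4.21 (adjusted p = 0.0371). The other ligand of this group that was tested, Vegfc, was not called, at -0.56 (adjusted p = 0.181). Of the EGF family ligands 2 of 7 were tested, and of the IL-6 family ligands 5 of 7. None of those tested was called by edgeR or DESeq2, against 5.96% and 7.74% of all tested genes. At an unadjusted p below 0.05 there were 0 and 2, against 26.3% of all tested genes. Those with the most counts in each family were Egf, at 0.03 on the log2 scale (adjusted p = 0.960), and Clcf1, an IL-6 family cytokine that was lower at -0.73 (adjusted p = 0.0471) but within a fold change of 2. Of the IGF binding proteins only Igfbp4 was tested, and its value of 2.14 (adjusted p = 0.324) rested on 439 counts in CD36+ NK replicate 1, without which it was -0.97.

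Among other ligands that act on stellate cells, Il1b and Il10 rose and Ifng fell in CD36+ NK. Il1b encodes an inflammatory cytokine and was at 146 ± 10.9 CPM in CD36+ NK and 21.4 ± 4.0 CPM in CD36- NK (SD, n = 3), a log2 fold change of 2.77 (edgeR adjusted p = 0.000428). Il10, an anti-inflammatory cytokine, was at 4.52 ± 0.683 CPM and 0.601 ± 0.445 CPM, a log2 fold change of 2.84 (adjusted p = 0.0136), or 3.56 without CD36- NK replicate 1. Ifng, the NK cell cytokine known to restrain stellate cells, was at 51.4 ± 11.1 CPM and 307 ± 161 CPM, a log2 fold change of -2.58 (adjusted p = 0.00800). Tgfb1, the main fibrogenic cytokine and the ligand of this list with the most counts over the 6 libraries, was not called, at 324 ± 30.2 CPM and 271 ± 25.7 CPM with a log2 fold change of 0.26 (95% interval -0.01 to 0.53, adjusted p = 0.206). For comparison, the median log2 fold change was -2.49 for the 12 NK lineage genes and 2.89 for the 10 tested macrophage and Kupffer cell genes. The part of cell content in the values of Ifng, Il1b and Il10 was not tested.

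Of the receptors of these growth factors, 19 of 24 were tested and 4 were called (21.1%, against 5.96% of all tested genes), all of them higher in CD36+ NK. The receptor list too was chosen with earlier results of these data known. Pdgfra had 1 count over all libraries, Osmr had 1, 1 and 0 in CD36+ NK replicates 1 to 3 and 0 in each CD36- NK library, and Egfr reached at most 5 counts in a library. Igf1r, the receptor of IGF-1, had 121 to 297 counts in every library and was at 0.20 on the log2 scale (adjusted p = 0.761), or -0.27 without CD36+ NK replicate 1. Flt1, which encodes VEGF receptor 1, had 77 to 311 counts and was at 0.99 (adjusted p = 0.0733), and it was called without CD36+ NK replicate 1 (1.20, adjusted p = 0.0255) or CD36- NK replicate 2 (1.23, adjusted p = 0.0441). Pdgfrb, which encodes the receptor of PDGF-B, was called higher at a low level, with 23, 40 and 36 counts in CD36+ NK replicates 1 to 3 and 5, 9 and 2 in CD36- NK replicates 1 to 3 (5.67-fold, adjusted p = 0.0188). Of 9 listed stellate cell genes, Lrat, Rgs5, Dcn and Des had 0 CPM in most libraries. The list summed to 20.3 to 27.8 CPM in CD36+ NK against 8.59 to 14.7 CPM in CD36- NK. Most of this sum was Hgf, with means of 19.2 ± 5.09 CPM and 8.83 ± 2.67 CPM (SD, n = 3). Only 2 of the listed genes were tested, both with a log2 fold change above 0. Of these, edgeR called 0 and DESeq2 called 1, against 5.96% and 7.74% of all tested genes. The part of stellate cells in the Pdgfrb difference was not tested. Lifr, the LIF receptor chain through which oncostatin M can also signal, rose with a log2 fold change of 1.84 (adjusted p = 0.00329), and its partner Il6st, the gp130 chain, was higher by 0.54 (adjusted p = 0.0399), under a fold change of 2. Nrp2, a co-receptor of VEGF ligands, rose by 1.51 (adjusted p = 0.00342), and Itgb5, an integrin chain that pairs with the alpha-v chain and binds osteopontin, by 2.06 (adjusted p = 0.0301). Cd44, another osteopontin receptor, was higher by 0.54 (adjusted p = 0.0431), and Igf2r, which clears IGF-2, was lower at -0.91 (adjusted p = 0.00584), both under a fold change of 2. The other listed integrin chains of osteopontin receptors were not called. Itga4, with the most counts of the receptor list, was at -0.56 (adjusted p = 0.0996), Itgb1 at -0.49 (adjusted p = 0.0570), Itgav at 0.44 (adjusted p = 0.678) and Itgb3 at -0.03 (adjusted p = 0.928). Itga9 was at 2.96 (adjusted p = 0.0599), and it was called without CD36- NK replicate 2 (4.54, adjusted p = 0.00697), with the block for the form of the library name (3.08, adjusted p = 0.0387) and by DESeq2 (adjusted p = 0.0215). Leaving out 1 library in turn, Pdgfrb lost its call in 4 of 6 fits with an adjusted p of up to 0.0824 and Itgb5 in 4 with one of up to 0.111, in both cases when replicate 2 or 3 of CD36+ NK or replicate 1 or 3 of CD36- NK was left out. Pdgfrb was at 3.12 without CD36- NK replicate 2, and the replicate block ended the call of Itgb5 (adjusted p = 0.0648), while Lifr and Nrp2 were called in each of these fits. Endothelial cell genes, which include the VEGF receptor gene Kdr, summed to 215 to 308 CPM in CD36+ NK against 155 to 171 CPM in CD36- NK. Of 8 such genes 5 were tested, all with a log2 fold change above 0. None was called by edgeR, though 1 had an adjusted p below 0.05, against 5.96% and 10.5% of all tested genes. At an unadjusted p below 0.05 there were 3 and DESeq2 called 2, against 26.3% and 7.74% of all tested genes. The part of endothelial cells in the values of Flt1 and Nrp2 was not tested.

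HB-EGF and amphiregulin are made as membrane precursors that ADAM proteases release. Adam10, which with Cd9 had the most counts of the group, was at 128 ± 34.7 CPM in CD36+ NK and 121 ± 39.2 CPM in CD36- NK (SD, n = 3), a log2 fold change of 0.08 with a 95% interval from -0.60 to 0.76 (edgeR adjusted p = 0.899). Rhbdf1 and Rhbdf2, which encode the iRhom partners of ADAM17, were higher by 0.63 (adjusted p = 0.0294) and 0.68 (adjusted p = 0.0110), within a fold change of 2. Plau, which encodes the plasminogen activator urokinase, was the only called gene of the group, at 1.02 (adjusted p = 0.0477). That is 1 of 9 tested, or 11.1% against 5.96% of all tested genes. Leaving out any library other than CD36- NK replicate 1 ended the call, with an adjusted p of up to 0.142. Upper-quartile scaling (0.0501), no filter on low counts (0.0726) and the replicate block (0.0735) also ended it. Platelets, which store PDGF-B, were followed with 7 marker genes that summed to 14.8 to 28.1 CPM in CD36+ NK and 17.7 to 19.6 CPM in CD36- NK, of which 4 were tested. Pf4 and Ppbp rose in CD36+ NK, whereas Itga2b was at -0.43 (adjusted p = 0.351) and Gp1bb at -0.89 (adjusted p = 0.258). Of these 4, edgeR called 2 and DESeq2 called 1, against 5.96% and 7.74% of all tested genes. The part of platelets in the Pdgfb difference was not tested.

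**Figure D5:**
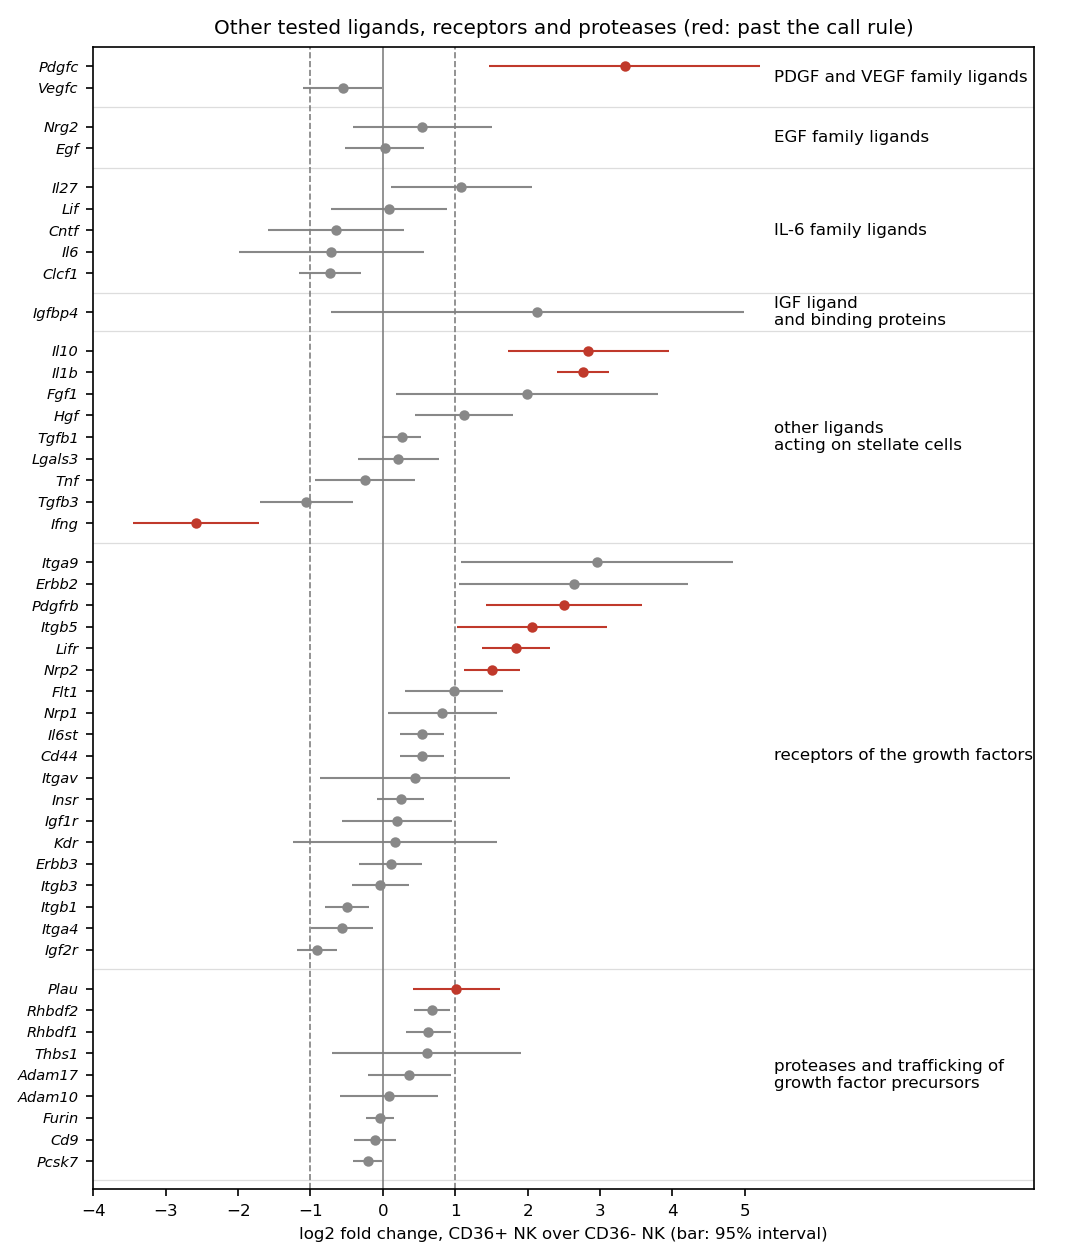
Fitted log2 fold changes, CD36+ NK over CD36- NK, of the 47 tested ligands, receptors and proteases by group, with 95% intervals as bars, dashed lines at a fold change of 2 and the 9 called genes in red. Pdgfc has the highest value of the called genes at 3.34, and Ifng is the only called gene below 0.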

How the data were processed

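The authors filtered the reads with Seqtk, aligned them with HISAT2 and counted them per gene with StringTie, and they deposited raw counts without normalization. The deposited FPKM values, which the authors derived from the counts, gene length and library size, served here only to compare levels between genes. The labels name HISAT2 2.0.4. The table names no genome build, and the labels list a rat build while the gene identifiers are those of mouse, so coordinates are printed as in the table. The lines of 2 genes, Tgfb1 and Tnf, were broken and were rejoined. Sample titles gave the groups, because the library names use the sign of CD36 differently.

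Counts were filtered with filterByExpr (minimum count of 10, 14761 genes kept), scaled by TMM and fitted with the quasi-likelihood test of edgeR 4.0.16 in R 4.3.3 (limma 3.58.1), without a block. Benjamini-Hochberg adjustment ran over all tested genes, and a call needed an adjusted p under 0.05 with more than a 2-fold difference. CPM values are counts scaled to a fixed total per library with the TMM factors. DESeq2 1.42.0, other scalings and filters, blocks, and each replicate left out in turn were alternatives. The script was tested on simulated data. Patterns were compared by the root mean square difference of centred log2 CPM with a pseudocount of 1.

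The growth factor genes and all gene lists were chosen with earlier results of these data known. The genes named are Cd36, all 9 growth factor genes, called genes and the tested gene with the most counts in each ligand, receptor and protease list, markers, and the 3 genes of nearest pattern to Spp1 and Pdgfb. Any other gene was picked with its values in view. Nrg1 has 2 rows in the table and was left out.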

Additional observations from a re-analysis of the deposited data

How the results depend on the processing

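With a replicate block, which pairs libraries by the number in their titles, 560 genes were called in place of 880, 0 of the growth factor genes and 7 of the other ligands, receptors and proteases (Itgb5 and Plau were lost). Of the 560 genes, 542 were among the 880. Deviations of same-numbered libraries correlated across genes with r = 0.310, 0.0515 and -0.0837, and CD36+ NK replicate 3 correlated best with CD36- NK replicate 2 (0.254), so the numbers were not taken as pairs. The library names number the CD36- NK libraries otherwise than the titles, and a block by those numbers was not run. Without a fold threshold, 1552 genes were called, 1 growth factor gene (Pdgfb) and 15 of the other listed genes. DESeq2 called 2 growth factor genes (Igf1 and Spp1) and 14 other listed genes, and a block by the form of the library name called 1 (Igf1). Leaving out 1 library at a time gave 417 to 1160 called genes, lowest without CD36- NK replicate 1 and highest without CD36- NK replicate 2, with 0 to 1 growth factor genes and 5 to 15 other listed genes. The 8 tested growth factor genes kept their direction under all 14 alternatives that could be fitted, 13 for Pdgfa. The alternative without a fold threshold keeps the main fit, so its direction could not differ. The log2 fold changes were 2.13 to 3.99 for Igf1, 0.89 to 1.49 for Spp1, -0.98 to -0.71 for Pdgfb and 0.38 to 0.62 for Vegfb. In the leave-one-out fits the direction turned for Egf (-0.11 to 0.11), Igf1r (-0.27 to 0.41), Itgb3 (-0.21 to 0.10), Igfbp4 (-0.97 to 2.68) and Adam10 (-0.16 to 0.29), none of which was called. The causes were not tested. Depth limits Areg, with 26 counts over 6 libraries, and Pdgfa, with as few as 1 count in a library.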
